A study of Homo sapiens with 16 samples.

Results

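The genes described here encode the proteins that start translation in human cells: the initiation factors EIF1 to EIF6, their subunits and the 4E-binding proteins that block EIF4E. They were taken as all symbols of the platform annotation that begin with EIF1 to EIF6, apart from the EIF2AK kinases. Of 50 such symbols, 47 had a value among 19775 genes in all. The other 3, EIF3CL, EIF4A1 and EIF4EBP3, lay only on probe sets that the annotation gives several genes, and no value was assigned to them. The 47 include 2 non-coding RNAs named after a neighbouring factor, EIF1B-AS1 and EIF3J-DT, and EIF1AY, which is counted but whose level is not given.

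The study asked how glucose metabolism regulates transcript levels in mammary cells. RNA of 16 samples was hybridised to Affymetrix U133 Plus 2.0 arrays, 1 array per sample. The 4 groups of 4 biological replicates (A to D) were MCF10A on vehicle, MCF10A with 2-deoxy-glucose (2DG), MDA-MB-231 on vehicle and MDA-MB-231 with 2DG. 2DG is a glucose analogue that inhibits glycolysis, given at 50 mM for 24 h, and the vehicle was water. MCF10A is an immortalised, non-tumorigenic mammary epithelial line. The other line, MDA-MB-231, comes from a breast cancer and has mesenchymal character. All groups grew at low density in DMEM/F12 with 17.5 mM glucose and antibiotics. MCF10A medium also held 1 mM glutamine, horse serum at 5%, hydrocortisone, insulin, cholera toxin and hEGF, and MDA-MB-231 medium 2 mM glutamine and 10% FBS. Line and medium cannot be told apart in any difference between the lines. 2DG was added on day 2 and RNA taken on day 3. The replicates are described as independent and run in parallel.

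Translation begins when EIF2, loaded with GTP and the initiator methionyl tRNA, joins EIF1, EIF1A, EIF5 and the large EIF3 complex on the small ribosomal subunit. EIF4F, made of the cap-binding EIF4E, the scaffold EIF4G and the helicase EIF4A, brings this complex to the capped messenger RNA. Cells lower the rate of this step by phosphorylating the alpha subunit of EIF2, which blocks its exchange factor EIF2B, and by letting 4E-binding proteins hold EIF4E when the kinase mTORC1 is inactive. The arrays measured transcript levels and neither phosphorylation nor protein. In such bulk RNA, fewer cells of a kind and less RNA per cell cannot be told apart.

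The values are log2 signals of 1 probe set per gene, the brightest, so a difference of 1 is a doubling, and levels are compared between samples for a gene and not between genes. A gene was called higher or lower at a Benjamini-Hochberg adjusted p under 0.05 in limma, over all 19775 genes. The lowest correlation between arrays of a group was 0.9977. The line labels were checked against markers: KRT5, a basal keratin, averaged 13.00 in MCF10A and 6.72 in MDA-MB-231 on vehicle. CDH1, the epithelial cadherin, averaged 13.06 and 4.62, and all 7 basal epithelial markers with a value were lower in MDA-MB-231. Of 8 mesenchymal markers 5 were higher there, with ZEB1 at 7.75 and 11.29. SPARC and TGFBI went the other way, from 10.92 to 5.55 and from 14.52 to 9.37. Lists of other cell types were set against the median of all probe sets, 6.23. Over the arrays the mean of 5 immune markers was 5.02 to 5.65, with PTPRC, the pan-leukocyte marker, at most 4.16 in any group mean but CD14 at 8.10 and 8.72 in MCF10A. The mean of 6 fibroblast markers was 6.10 to 6.26 in MCF10A on vehicle and 6.78 to 6.89 with 2DG, where COL1A1 went from 9.04 to 11.15, and 5.71 to 5.83 and 6.06 to 6.21 in MDA-MB-231. The mean of 4 endothelial markers was 5.64 to 5.70 and 5.82 to 6.01 in MCF10A, and 5.99 to 6.12 and 6.41 to 6.56 in MDA-MB-231. The part of these markers in the members' changes was not tested.

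RNA quality moved with a comparison. The log2 ratio of the 3' to the 5' actin control probe sets was 0.34 to 0.49 in MCF10A vehicle, 0.50 to 0.65 in MCF10A 2DG and 0.97 to 1.13 in MDA-MB-231 2DG. In MDA-MB-231 vehicle it was 0.38, 1.09, 0.45 and 0.47, so that replicate B stood with the 2DG arrays. Replicate B was the highest or lowest vehicle array for 30 of the 46 members whose levels are given, by -0.12 to 0.31 from the mean of the other 3 arrays, and by -2.30 for EIF5A. With replicate B left out, 15 members were higher and 18 lower in MDA-MB-231, with EIF3D, EIF4ENIF1 and EIF4G1 gaining a call and EIF3E losing it. With the ratio as a covariate, 10 were higher and 17 lower.

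With 2DG, 17 of the 47 members were called higher and 22 lower in MCF10A, and 14 higher and 17 lower in MDA-MB-231. The background was high: in MCF10A 29% of all genes were called higher and 25.2% lower, 54.2% in all, and in MDA-MB-231 25.5% were called higher and 25.4% lower, 50.9% in all. The median change of the members was -0.08 in MCF10A and -0.03 in MDA-MB-231, beside 0.02 and 0.03 over all genes. Members are bright: 38 had a mean of at least 10 over the arrays, a level that 20.4% of all genes reached. Among the 4029 genes at or above that level 86.7% were called in MCF10A and 82.9% in MDA-MB-231, and of the 38 members 33 and 28 were. The number of calls is therefore no trait of the members, and their direction was mixed. The vehicle and 2DG arrays did not overlap for 39 members in MCF10A, where 51.6% of all genes did not, and for 29 in MDA-MB-231, beside 46.9%. Of the 38 bright members 34 and 26 did not overlap, beside 87.6% and 80.4% of bright genes.

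**Figure D1:**
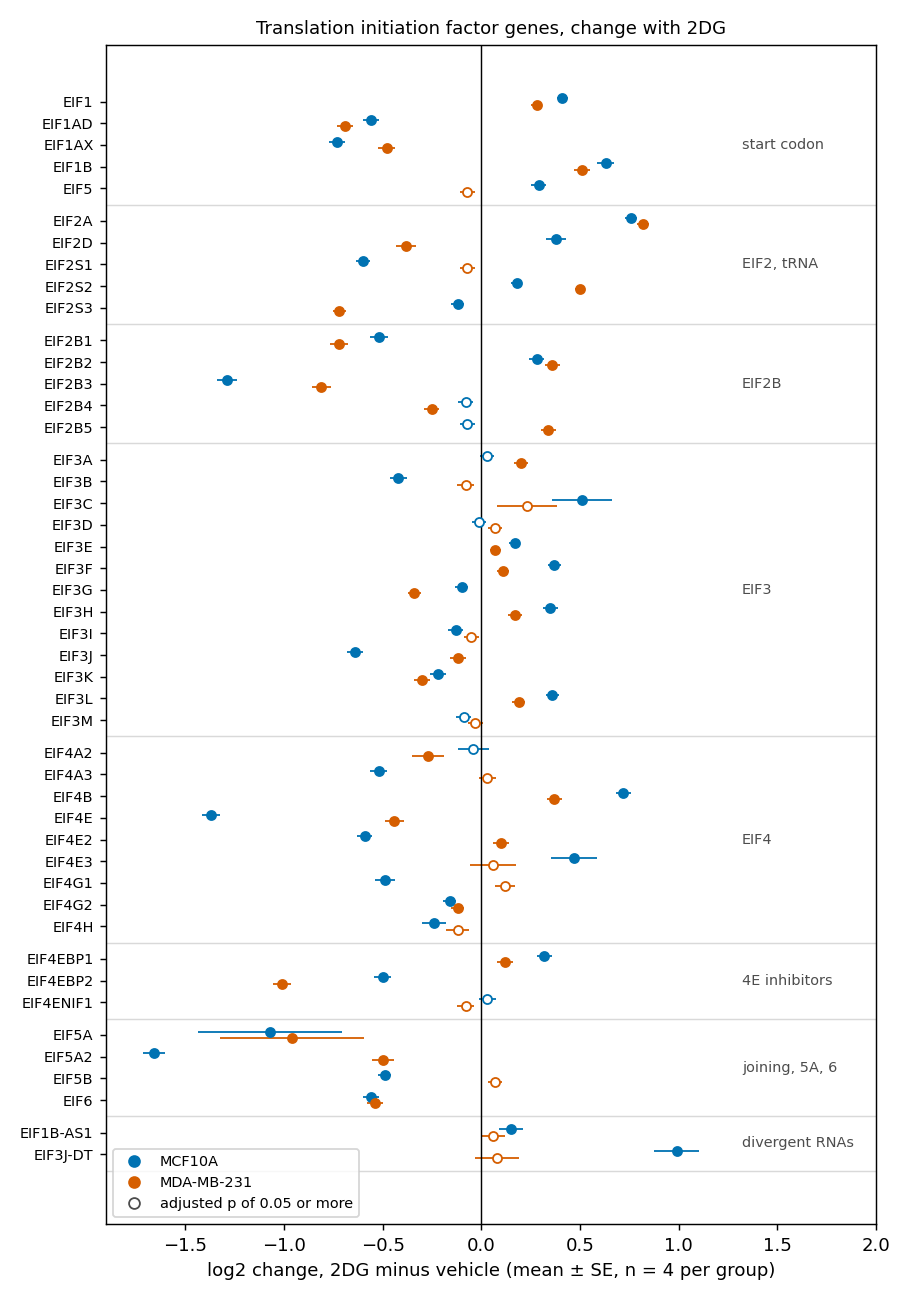
Change of each member on the log2 scale, 2DG minus vehicle, as mean and standard error of the fit (4 arrays per group), grouped by role. Filled points passed an adjusted p of 0.05. All 4 factors of the subunit joining, EIF5A and EIF6 group lay below 0 in MCF10A, while EIF3 members lay on both sides of 0 in both lines.

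Across the lines, 11 members rose in both, as 15.3% of all genes did (EIF1, EIF1B, EIF2A, EIF2B2, EIF2S2, EIF3E, EIF3F, EIF3H, EIF3L, EIF4B and EIF4EBP1). Another 14 fell in both, beside 15.9% of all genes (EIF1AD, EIF1AX, EIF2B1, EIF2B3, EIF2S3, EIF3G, EIF3J, EIF3K, EIF4E, EIF4EBP2, EIF4G2, EIF5A, EIF5A2 and EIF6). EIF2D rose in MCF10A and fell in MDA-MB-231, and EIF4E2 did the reverse, while 8.22% of all genes were called in opposite directions. Called in 1 line were 16 members, 12 in MCF10A and 4 in MDA-MB-231, and 26.2% of all genes. Of these 16, 10 also had a called difference between the responses, as did 66.7% of all genes called in 1 line. Among bright genes 25.4% rose in both lines, 32.8% fell in both, 14.5% were called in opposite directions and 24.1% in 1 line. Of the 38 bright members 11 rose in both and 12 fell in both. A further 1 rose in MCF10A and fell in MDA-MB-231, 1 did the reverse, 8 were called in MCF10A alone and 3 in MDA-MB-231 alone. EIF1AY, EIF3D, EIF3M and EIF4ENIF1 were called in neither line, beside 34.4% of all genes. Of the 38 bright members 2 were called in neither, beside 3.13% of bright genes. The rise of EIF3E in MDA-MB-231 was small, 0.07 (SE 0.0277, adjusted p = 0.046), and lost its call when any of 15 of the 16 arrays was left out. The rise of EIF1B-AS1 in MCF10A, 0.15 (SE 0.0594, adjusted p = 0.0466), was lost for 10 of the 16.

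**Figure D2:**
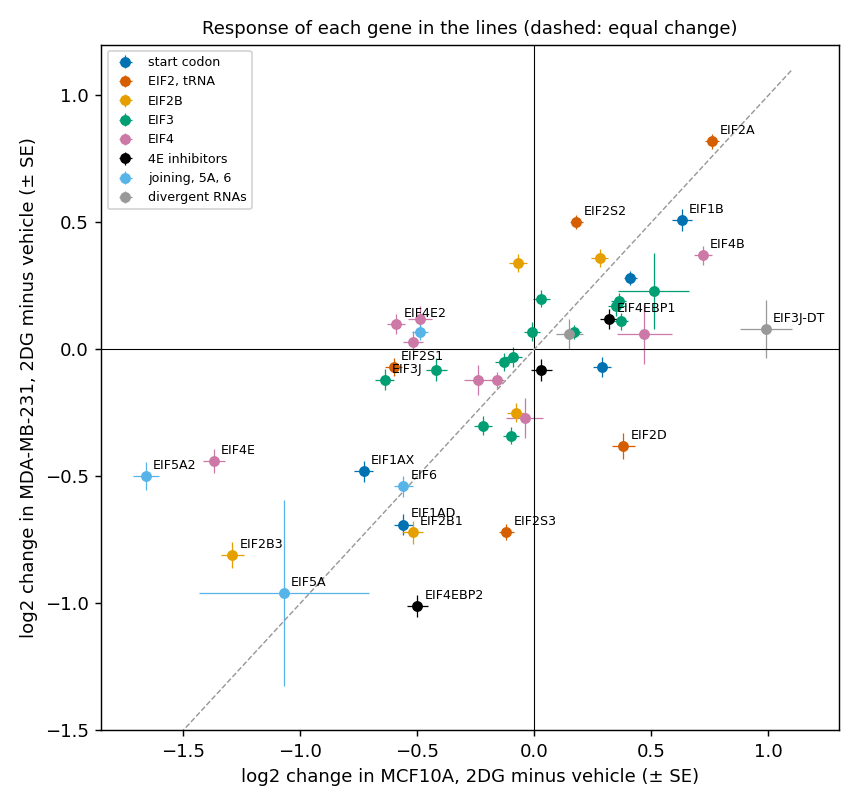
Log2 change of each member with 2DG in MCF10A (x axis) and in MDA-MB-231 (y axis), with standard errors, coloured by role. The dashed line marks equal change: EIF5A2 and EIF4E lie far above it, since they fell by more in MCF10A, and EIF3J-DT, EIF2D, EIF2S3 and EIF4EBP2 lie below it.

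The 3 largest falls in MCF10A on the probe sets used were those of EIF5A2, EIF4E and EIF2B3, which also fell in MDA-MB-231. Their promoters are shown because the 250 bases before the start of each hold CACGTG, the E-box core that reads the same on both strands. EIF4B is shown beside them as a member that rose and holds the same letters. The sequences are from RefSeq (GRCh38.p14), in the direction of the gene, ending at the base before its start, with each CACGTG in capitals. EIF5A2 lies at chr3:170908638-170908887 on the minus strand, EIF4E at chr4:98929134-98929383 on the minus strand, EIF2B3 at chr1:44986596-44986845 on the minus strand and EIF4B at chr12:53006206-53006455 on the plus strand.
EIF5A2: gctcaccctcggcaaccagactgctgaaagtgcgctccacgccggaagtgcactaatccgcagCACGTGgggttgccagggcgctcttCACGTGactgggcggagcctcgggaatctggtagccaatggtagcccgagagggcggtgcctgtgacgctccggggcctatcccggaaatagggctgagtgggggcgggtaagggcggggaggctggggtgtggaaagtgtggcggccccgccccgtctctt
EIF4E: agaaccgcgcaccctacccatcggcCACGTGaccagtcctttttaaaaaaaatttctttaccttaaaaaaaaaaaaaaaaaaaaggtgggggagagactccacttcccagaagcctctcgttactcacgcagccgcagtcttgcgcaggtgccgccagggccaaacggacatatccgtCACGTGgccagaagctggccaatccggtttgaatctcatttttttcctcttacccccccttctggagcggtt
EIF2B3: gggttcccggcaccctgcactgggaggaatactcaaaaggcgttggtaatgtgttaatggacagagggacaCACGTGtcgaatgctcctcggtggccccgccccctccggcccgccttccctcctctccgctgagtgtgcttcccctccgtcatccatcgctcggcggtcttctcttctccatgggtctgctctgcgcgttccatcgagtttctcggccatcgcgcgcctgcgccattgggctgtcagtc
EIF4B: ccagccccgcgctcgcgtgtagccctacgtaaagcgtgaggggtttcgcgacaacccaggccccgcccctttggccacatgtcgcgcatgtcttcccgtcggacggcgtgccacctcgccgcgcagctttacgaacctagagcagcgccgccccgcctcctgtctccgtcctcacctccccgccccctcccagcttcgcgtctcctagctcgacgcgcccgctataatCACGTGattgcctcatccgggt
The first base of the motif lay 187 and 162 bases before the start in EIF5A2, 225 and 72 in EIF4E, 179 in EIF2B3 and 22 in EIF4B. Promoters were found for 40 of the 47 members, and 10 of the 40 (25%) held CACGTG, beside 7.73% of 27305 genes in the table. In MCF10A, 7 of 21 members that fell and 3 of 12 that rose held it. In MDA-MB-231, these were 4 of 16 and 3 of 8. Of the members not called, 0 of 6 held it in MCF10A and 3 of 15 in MDA-MB-231. Promoters for EIF2S2, EIF4EBP1, EIF3L, EIF3H, EIF3E, EIF3A and EIF3G were not used here. A match describes the letters in this window and shows no binding.

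The subunits of EIF2 changed apart from each other. EIF2S1 encodes the alpha subunit, whose phosphorylation stops exchange of its nucleotide. In MCF10A it read 12.29, 12.26, 12.33 and 12.33 on vehicle (replicates A to D, the order used throughout) and 11.68, 11.76, 11.75 and 11.63 after 2DG. MDA-MB-231 arrays gave 12.88, 12.94, 12.94 and 12.90 on vehicle and 12.81, 12.82, 12.86 and 12.87 after treatment. All MCF10A arrays with 2DG lay below all those on vehicle, while in MDA-MB-231 the highest treated array, 12.87, lay just under the lowest vehicle array, 12.88. The log2 change was -0.60 (SE 0.0364, adjusted p = 3.28e-10) in MCF10A and -0.07 (SE 0.0364, adjusted p = 0.103) in MDA-MB-231, where the interval ran from -0.15 to 0.00. The difference of the responses was 0.52 (SE 0.0515, adjusted p = 2.84e-07). The other probe sets of EIF2S1 fell in both lines, by log2 changes of -1.23 and -1.33 in MCF10A and -0.66 and -0.86 in MDA-MB-231, so the absence of a call in MDA-MB-231 holds for the brightest probe set.

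EIF2S2 encodes the beta subunit, which contacts EIF5 and EIF2B. It read 13.21, 13.18, 13.17 and 13.17 in MCF10A on vehicle and 13.36, 13.36, 13.37 and 13.37 with 2DG, and 13.56, 13.58, 13.58 and 13.56 in MDA-MB-231 on vehicle and 14.07, 14.08, 14.04 and 14.08 with 2DG. Treated arrays were above vehicle arrays in both lines without overlap. The rise was 0.18 (SE 0.0274, adjusted p = 2.13e-05) in MCF10A and 0.50 (SE 0.0274, adjusted p = 1.28e-10) in MDA-MB-231. A dimmer probe set of the gene went the other way, with log2 changes of -1.10 and -0.39, so the direction depends on the probe set.

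EIF2S3 encodes the gamma subunit, which binds GTP and the initiator tRNA. MCF10A values were 12.69, 12.70, 12.70 and 12.71 on vehicle and 12.57, 12.56, 12.58 and 12.59 with 2DG. MDA-MB-231 values were 11.45, 11.52, 11.44 and 11.49 on vehicle and 10.82, 10.78, 10.72 and 10.72 with 2DG. The groups were separate in both lines, and every MDA-MB-231 array lay below every MCF10A array. The fall was -0.12 (SE 0.0326, adjusted p = 0.00352) in MCF10A and -0.72 (SE 0.0326, adjusted p = 1.21e-11) in MDA-MB-231, with a difference of -0.59 (SE 0.046, adjusted p = 1.81e-08), among the 3 largest negative differences. On vehicle MDA-MB-231 stood -1.23 (SE 0.0326, adjusted p = 7.56e-15) from MCF10A, a 2.34-fold lower level. In MCF10A the other probe sets rose, by 0.38 and 0.40, whereas in MDA-MB-231 they changed by -0.23 and -0.18, the last of them not called. All 3 probe sets gave a lower level in MDA-MB-231 on vehicle.

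EIF2A and EIF2D, which can deliver tRNA to the ribosome without EIF2, are encoded by separate genes. EIF2A rose to nearly the same extent in the lines and was the largest rise of a protein-coding member in both. It read 12.29, 12.24, 12.28 and 12.21 in MCF10A on vehicle and 13.03, 13.01, 13.03 and 13.00 with 2DG. The MDA-MB-231 arrays gave 11.99, 12.00, 12.01 and 11.96 on vehicle and 12.82, 12.80, 12.83 and 12.79 with 2DG. No array overlapped between treatments, and the changes were 0.76 (SE 0.03, adjusted p = 1.23e-12) and 0.82 (SE 0.03, adjusted p = 8.9e-13). Their difference of 0.06 was not called (adjusted p = 0.313, interval -0.03 to 0.15).

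EIF2D went opposite ways. In MCF10A it moved from 11.21, 11.16, 11.32 and 11.18 to 11.61, 11.59, 11.62 and 11.59, and in MDA-MB-231 from 10.34, 10.49, 10.32 and 10.30 to 9.93, 10.00, 9.93 and 10.09. Treated arrays were all higher in MCF10A and all lower in MDA-MB-231. The change was 0.38 (SE 0.05, adjusted p = 4.15e-06) and -0.38 (SE 0.05, adjusted p = 6.41e-06), and the difference -0.76 (SE 0.0707, adjusted p = 1.43e-07). EIF2D has a single probe set of its own.

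EIF2B, the exchange factor that reloads EIF2 with GTP, has 5 subunits, of which 2 fell in both lines and 1 rose in both. EIF2B3 encodes the gamma subunit of the catalytic part. It fell from 10.64, 10.63, 10.68 and 10.66 to 9.36, 9.37, 9.51 and 9.21 in MCF10A and from 11.04, 11.00, 10.99 and 10.92 to 10.17, 10.19, 10.21 and 10.15 in MDA-MB-231. All treated arrays lay below all vehicle arrays. The log2 change was -1.29 (SE 0.0501, adjusted p = 1.04e-12) in MCF10A, a 2.45-fold fall, and -0.81 (SE 0.0501, adjusted p = 5.63e-10) in MDA-MB-231. The difference of 0.48 (SE 0.0708, adjusted p = 2.48e-05) between these responses was called.

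EIF2B1 encodes the alpha subunit, which senses phosphorylated EIF2. MCF10A arrays read 11.03, 11.02, 11.07 and 11.01 on vehicle and 10.51, 10.48, 10.56 and 10.51 with 2DG, and MDA-MB-231 arrays 11.54, 11.70, 11.58 and 11.57 on vehicle and 10.78, 10.93, 10.83 and 10.96 with 2DG. It was lower with 2DG on every array, by log2 changes of -0.52 and -0.72. The latter was among the 6 largest falls in MDA-MB-231 (limma adjusted p = 6.08e-10).

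EIF2B2, the beta subunit, rose. Values were 9.97, 9.91, 9.97 and 9.91 in MCF10A on vehicle and 10.19, 10.25, 10.23 and 10.22 with 2DG, and 10.94, 10.94, 11.03 and 10.92 in MDA-MB-231 on vehicle and 11.24, 11.32, 11.32 and 11.37 with 2DG. The rises of 0.28 and 0.36 were both called, and their difference was not (adjusted p = 0.301). On vehicle EIF2B2 was among the 3 largest positive differences between the lines, 1.02 (SE 0.037, adjusted p = 4.02e-13), with no overlap. EIF2B5, the catalytic epsilon subunit, read 10.07, 9.98, 10.07 and 9.96 on vehicle and 9.95, 10.01, 9.96 and 9.90 with 2DG in MCF10A, groups that overlapped. In MDA-MB-231 it went from 10.55, 10.54, 10.48 and 10.48 to 10.83, 10.88, 10.85 and 10.84, a called rise of 0.34 (SE 0.0373, adjusted p = 7.12e-07). Its dimmer probe set changed by -0.57 and -0.55 in the lines. EIF2B4, the delta subunit, changed by -0.08 in MCF10A, not called, and by -0.25 in MDA-MB-231, called.

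**Figure D3:**
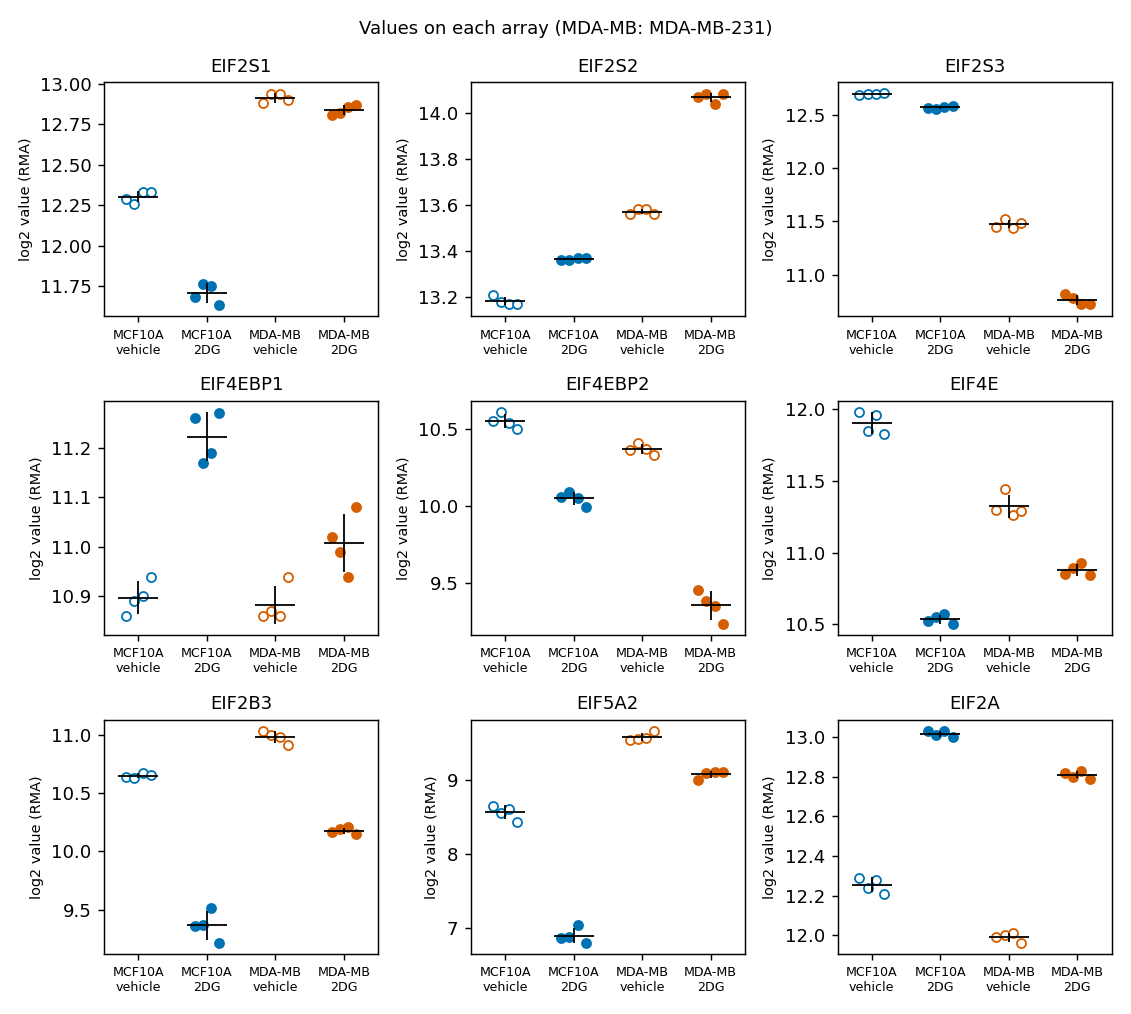
Log2 values of 9 members on each array, with MCF10A in blue, MDA-MB-231 (MDA-MB) in orange, vehicle open and 2DG filled, and black bars for the mean and SD of 4 arrays. The y axes differ between panels and do not start at 0. EIF2S1 and EIF4E fell further in MCF10A than in MDA-MB-231, EIF2S3 and EIF4EBP2 further in MDA-MB-231 than in MCF10A, and EIF2A rose alike in both.

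Among the 4E-binding inhibitors, 1 of the 3 genes with a value rose, 1 fell and 1 was not called, in each line. EIF4EBP1, the best studied repressor of EIF4E and a substrate of mTORC1, read 10.86, 10.89, 10.90 and 10.94 in MCF10A on vehicle and 11.26, 11.17, 11.19 and 11.27 with 2DG. MDA-MB-231 arrays gave 10.86, 10.87, 10.86 and 10.94 on vehicle and 11.02, 10.99, 10.94 and 11.08 with 2DG. The MCF10A groups were well apart, whereas in MDA-MB-231 treated replicate C equalled vehicle replicate D at 10.94. The rise was 0.32 (SE 0.0388, adjusted p = 1.55e-06) in MCF10A, a 1.25-fold increase, and 0.12 (SE 0.0388, adjusted p = 0.0126) in MDA-MB-231. The latter was not called with the actin ratio as a covariate, at 0.12 with an adjusted p of 0.102. Between the responses the difference was -0.20 (SE 0.0549, adjusted p = 0.00633). On vehicle the lines differed by -0.02, with overlap and no call (adjusted p = 0.782).

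EIF4EBP2, another repressor of the same kind, fell. It moved from 10.55, 10.61, 10.54 and 10.50 to 10.06, 10.09, 10.05 and 9.99 in MCF10A. It moved from 10.36, 10.41, 10.37 and 10.33 to 9.45, 9.38, 9.35 and 9.23 in MDA-MB-231. There was no overlap in either line. On the probe sets used, this was the largest fall of any member in MDA-MB-231 with all arrays (without replicate B, that of EIF5A was larger). The change was -0.50 (SE 0.0445, adjusted p = 3.98e-08) in MCF10A and -1.01 (SE 0.0445, adjusted p = 7.74e-12) in MDA-MB-231, a 2.02-fold fall there, and the difference was -0.51 (SE 0.063, adjusted p = 3.54e-06). All of its 5 probe sets had a negative change in both lines, from -0.01 to -0.50 in MCF10A and from -0.10 to -1.13 in MDA-MB-231. The changes of -0.01 and -0.10 were not called. The second brightest probe set gave that -0.10 and -0.38 in MCF10A. Its difference of responses was 0.28 (limma adjusted p = 0.0262), opposite in sign to the brightest. EIF4ENIF1, the transporter that carries EIF4E into the nucleus, changed by 0.03 and -0.08, neither called, and was lower in MDA-MB-231 on vehicle, -0.72 (SE 0.0436, adjusted p = 2.87e-10).

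In the cap-binding and helicase group, 2 of 9 members rose and 6 fell in MCF10A, and 2 rose and 3 fell in MDA-MB-231. EIF4E, the cap-binding protein itself, read 11.98, 11.85, 11.96 and 11.83 in MCF10A on vehicle and 10.52, 10.55, 10.57 and 10.50 with 2DG. In MDA-MB-231 its values were 11.30, 11.44, 11.26 and 11.29 on vehicle and 10.85, 10.89, 10.93 and 10.84 with 2DG. MCF10A had the higher level on vehicle and the lower level with 2DG, with no overlap between any 2 groups. The change was -1.37 (SE 0.0462, adjusted p = 1.77e-13) in MCF10A, a 2.58-fold fall, and -0.44 (SE 0.0462, adjusted p = 3.38e-07) in MDA-MB-231. The difference was 0.93 (SE 0.0653, adjusted p = 5.42e-09). The next brightest probe set gave -1.42 and -0.50, and a dimmer set, the brightest not shared with other transcripts, -1.28 and -1.39, so the difference between the lines is not seen there.

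EIF4E2, a cap-binding homologue that represses translation, moved from 11.07, 11.05, 11.08 and 11.07 to 10.45, 10.49, 10.52 and 10.44 in MCF10A. In MDA-MB-231 it read 10.13, 10.21, 10.16 and 10.10 on vehicle and 10.20, 10.24, 10.22 and 10.35 with 2DG, groups that overlapped. The fall in MCF10A was -0.59 (SE 0.0384, adjusted p = 7.35e-10). In MDA-MB-231 the change of 0.10 (SE 0.0384, adjusted p = 0.0355) lost its call with the actin ratio as a covariate, at 0.07 with an adjusted p of 0.304, and in 9 of the other alternatives. The difference of 0.69 (SE 0.0543, adjusted p = 1.85e-08) was called. EIF4E3, another cap-binding homologue, read 8.31, 8.12, 8.33 and 8.18 on vehicle and 8.75, 8.58, 8.78 and 8.72 with 2DG in MCF10A, and 6.91, 6.92, 6.87 and 6.72 on vehicle and 6.54, 6.89, 7.33 and 6.90 with 2DG in MDA-MB-231. The gene rose in MCF10A, 0.47 (SE 0.117, adjusted p = 0.00236). On the probe sets used it had the largest deficit of any member in MDA-MB-231 on vehicle, -1.38 (SE 0.117, adjusted p = 2.1e-08), 2.6-fold lower. The MDA-MB-231 change of 0.06 (adjusted p = 0.717) and the difference of -0.41 (adjusted p = 0.0529) were not called. A probe set of nearly equal brightness gave 1.17 in MCF10A, a called difference of -1.04 and -2.30 on vehicle. Dimmer sets gave differences of -0.40 and 0.00, not called.

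EIF4B, which stimulates the helicase, rose from 11.97, 11.94, 12.00 and 11.91 to 12.68, 12.64, 12.72 and 12.68 in MCF10A. In MDA-MB-231 it rose from 11.88, 11.87, 11.85 and 11.79 to 12.14, 12.21, 12.29 and 12.22. No arrays overlapped, and the changes were 0.72 (SE 0.0381, adjusted p = 4.83e-11) and 0.37 (SE 0.0381, adjusted p = 3.34e-07). All 3 of its probe sets rose in both lines. The scaffold EIF4G1 fell in MCF10A by a log2 change of -0.49 and was not called in MDA-MB-231 at 0.12, with a called difference of 0.61. Without replicate B its MDA-MB-231 change was 0.18 with an adjusted p of 0.0019. The dimmer probe set of EIF4G1 changed by -0.61 in MCF10A and by 0.52 in MDA-MB-231, both called. EIF4A3, a helicase of the exon junction complex, changed by -0.52 and 0.03. EIF4H, a helper of the helicase, and EIF4G2, a scaffold that does not bind EIF4E, fell by less in MCF10A, with changes of -0.24 and -0.16. EIF4A2, a helicase of the cap complex, is represented only by a dim probe set that read between 3.48 and 3.95 on all arrays, since brighter ones carry several genes. Its change of -0.27 in MDA-MB-231 was called.

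Start codon selection factors split by gene. EIF1B, a close homologue of EIF1, which keeps the scanning complex open until a start codon is met, rose from 11.80, 11.72, 11.76 and 11.79 to 12.39, 12.37, 12.39 and 12.46 in MCF10A. In MDA-MB-231 it went from 11.99, 12.03, 12.13 and 12.19 to 12.60, 12.59, 12.61 and 12.57. Treated arrays were higher without overlap, by 0.63 (SE 0.0424, adjusted p = 1.09e-09) and 0.51 (SE 0.0424, adjusted p = 2.35e-08). EIF1 rose too, by 0.41 and 0.28, and its next brightest probe set rose by 0.86 and 0.84. A dimmer probe set, of mean level 8.84, changed by -0.32 in MCF10A (limma adjusted p = 9.04e-05) and by 0.37 in MDA-MB-231. The remaining probe sets of EIF1 rose in both lines.

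EIF1AX, which works with EIF1 in scanning, fell. MCF10A values were 12.99, 12.94, 13.01 and 12.92 on vehicle and 12.24, 12.23, 12.24 and 12.24 with 2DG, and MDA-MB-231 values 12.17, 12.29, 12.16 and 12.26 on vehicle and 11.78, 11.72, 11.80 and 11.65 with 2DG. The groups did not overlap, and the changes were -0.73 (SE 0.0413, adjusted p = 1.31e-10) and -0.48 (SE 0.0413, adjusted p = 3.15e-08). All 4 of its probe sets fell in both lines, the dimmest by log2 changes of -2.45 and -2.78. EIF1AD, a protein with an EIF1A-like domain, fell from 9.77, 9.79, 9.89 and 9.85 to 9.28, 9.30, 9.31 and 9.19 in MCF10A and from 10.08, 10.10, 10.08 and 10.13 to 9.46, 9.38, 9.34 and 9.45 in MDA-MB-231, by -0.56 and -0.69. The dimmer probe set of EIF1AD, of mean level 7.98, changed by -0.11 and 0.10, neither called. EIF5, which makes EIF2 hydrolyse its GTP, rose by 0.29 in MCF10A and was not called in MDA-MB-231 at -0.07. Its probe sets ranged from -1.04 to 1.39 in MDA-MB-231.

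EIF3, the large complex that organises the small subunit, had 13 members with a value. In MCF10A 5 rose and 5 fell, with a range from -0.64 to 0.51, and in MDA-MB-231 5 rose and 3 fell, with a range from -0.34 to 0.23. EIF3E, EIF3F, EIF3H and EIF3L rose in both lines and EIF3G, EIF3J and EIF3K fell in both. EIF3J, a loosely bound subunit, moved from 11.94, 11.89, 11.93 and 11.88 to 11.35, 11.28, 11.28 and 11.17 in MCF10A and from 11.72, 11.63, 11.71 and 11.69 to 11.50, 11.57, 11.61 and 11.58 in MDA-MB-231. The groups did not overlap, and the fall of -0.64 (SE 0.0409, adjusted p = 6.03e-10) in MCF10A exceeded that of -0.12 (SE 0.0409, adjusted p = 0.0193) in MDA-MB-231, with a difference of 0.52 (SE 0.0578, adjusted p = 1.2e-06). The latter was not called with the actin ratio as a covariate, at -0.05 with an adjusted p of 0.515.

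EIF3C, a core subunit, was represented by a dim probe set that read 5.28, 5.42, 5.00 and 5.51 on vehicle and 5.70, 6.05, 5.97 and 5.52 with 2DG in MCF10A, and 5.33, 5.25, 5.32 and 5.47 on vehicle and 5.66, 5.95, 5.16 and 5.54 with 2DG in MDA-MB-231. The change was called in MCF10A, 0.51 (SE 0.151, adjusted p = 0.00904). In MDA-MB-231 the groups overlapped and the change of 0.23 was not called (adjusted p = 0.224). The difference of the responses, -0.27, was not called either (adjusted p = 0.347). EIF3G, which binds RNA, read 11.54, 11.53, 11.56 and 11.54 on vehicle and 11.44, 11.42, 11.50 and 11.41 with 2DG in MCF10A and 12.56, 12.59, 12.54 and 12.51 on vehicle and 12.18, 12.23, 12.17 and 12.25 with 2DG in MDA-MB-231. Every MDA-MB-231 array was above every MCF10A array, with a difference on vehicle of 1.01 (SE 0.0332, adjusted p = 1.13e-13). EIF3B, a core scaffold subunit, changed on its brightest probe set by -0.42 in MCF10A, called, and by -0.08 in MDA-MB-231, not called, with a called difference of 0.34. EIF3A, the largest subunit, changed by 0.03 and 0.20 on its brightest probe set but by -1.69 and -2.62 on the dimmest.

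Of the factors that act on subunit joining and after, all 4 fell in MCF10A and 3 fell in MDA-MB-231. EIF5A2, a paralogue of EIF5A with a more restricted expression, had the largest fall of any member in MCF10A on the probe sets used. It read 8.65, 8.55, 8.60 and 8.43 on vehicle and 6.86, 6.88, 7.04 and 6.80 with 2DG, and in MDA-MB-231 9.54, 9.55, 9.56 and 9.66 on vehicle and 9.00, 9.09, 9.10 and 9.10 with 2DG. All groups were separate, and MDA-MB-231 was higher on either treatment. The change was -1.66 (SE 0.0558, adjusted p = 1.71e-13) in MCF10A, a 3.17-fold fall, and -0.50 (SE 0.0558, adjusted p = 7.26e-07) in MDA-MB-231. The difference, 1.16 (SE 0.079, adjusted p = 3.63e-09), was the largest of any member. The difference between lines on vehicle was 1.02 (SE 0.0558, adjusted p = 7.75e-11). In MDA-MB-231 its other probe sets changed by 1.05 and -1.09, both called, so the direction there depends on the probe set, while in MCF10A all 3 fell.

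EIF5A, which helps the ribosome through difficult peptide bonds and carries the modified residue hypusine, read 13.37, 13.34, 13.28 and 13.32 in MCF10A on vehicle and 12.30, 12.20, 12.31 and 12.23 after 2DG. The MDA-MB-231 arrays gave 12.97, 10.62, 12.91 and 12.87 on vehicle and 11.35, 11.47, 11.20 and 11.52 after treatment. Here vehicle replicate B lay below all treated arrays, and the other 3 vehicle arrays stood above them. With all arrays the change was -1.07 (SE 0.365, adjusted p = 0.0207) in MCF10A and -0.96 (SE 0.365, adjusted p = 0.0387) in MDA-MB-231. Without replicate B it was -1.07 (SE 0.0585, adjusted p = 3.04e-10) and -1.53 (SE 0.0632, adjusted p = 2.16e-11). The difference of the responses moved from 0.11 (SE 0.517, adjusted p = 0.893) to -0.46 (SE 0.0861, adjusted p = 0.000337). The difference between the lines on vehicle moved from -0.99 (SE 0.365, adjusted p = 0.0305) to -0.41 (SE 0.0632, adjusted p = 4.01e-05).

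The EIF5A change in MDA-MB-231, once the actin ratio entered the fit, was 0.39 (adjusted p = 0.095) and the difference of responses 0.96 (adjusted p = 0.000712). In the same fit the MCF10A change was -0.58 (adjusted p = 0.00166) and the vehicle difference between the lines -0.34 (adjusted p = 0.0474). In MDA-MB-231 the ratio followed the treatment on all arrays but vehicle replicate B, at 1.09. The values of this fit therefore lean heavily on that array. The call in MDA-MB-231 was also lost when any other MDA-MB-231 array was left out (adjusted p = 0.055 to 0.126), with the trend and robust setting of eBayes (0.0689) and with only the groups compared in the fit (0.122). The vehicle difference lost its call without any of the 4 MCF10A vehicle arrays (adjusted p = 0.0505 to 0.0569), with trend and robust (0.0564) and with only the groups compared (0.105). The other probe sets fell less in MDA-MB-231, by log2 changes of -0.62 and -0.44, and replicate B was low on these too, at 10.97 and 10.14. The part of RNA quality in this value was not tested further.

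**Figure D4:**
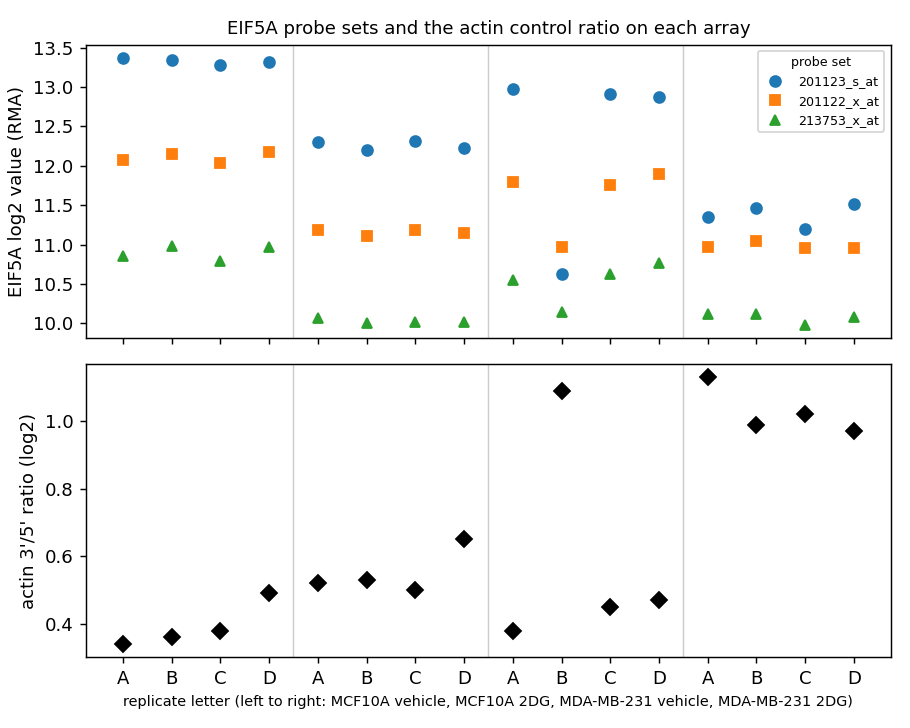
Upper panel, log2 values of the 3 EIF5A probe sets on each of the 16 arrays; lower panel, log2 ratio of the 3' to the 5' actin control on the same arrays. Vehicle replicate B of MDA-MB-231 has an actin ratio of 1.09, like the arrays with 2DG, and the lowest EIF5A values of its group on each probe set.

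EIF5B, the GTPase that joins the subunits, fell in MCF10A by a log2 change of -0.49 and was not called in MDA-MB-231 at 0.07, a called difference of 0.57. EIF6, which keeps the large subunit from joining early, fell alike, by -0.56 and -0.54, with a difference of 0.02 that was not called (adjusted p = 0.804).

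The non-coding RNA EIF3J-DT, transcribed away from EIF3J, had the largest rise of any member in MCF10A on the probe sets used. It went from 7.18, 6.77, 6.91 and 6.55 to 7.95, 7.91, 7.88 and 7.63, with no overlap. In MDA-MB-231 it stayed between 7.68 and 7.98 on all arrays, at 7.68, 7.76, 7.71 and 7.98 on vehicle and 7.92, 7.93, 7.70 and 7.92 with 2DG. The change was 0.99 (SE 0.113, adjusted p = 8.64e-07) in MCF10A and 0.08 (SE 0.113, adjusted p = 0.581) in MDA-MB-231, and the difference -0.91 (SE 0.159, adjusted p = 0.000155) was the most negative of any member. EIF3J itself fell in MCF10A. The arrays label from the 3' end, and overlap between the transcripts was not examined.

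In all, 14 members had a response called more positive in MDA-MB-231 than in MCF10A and 15 a response called more negative, while over all genes 22.3% and 23.6% were, 45.8% in all. Of the 38 bright members 27 were called, beside 76.6% of bright genes. The median difference was 0.02, and 0.01 over all genes. On vehicle, 25 members were higher in MDA-MB-231 and 13 lower, where over all genes 29.2% were higher and 26.8% lower, 56% in all. Of the 38 bright members 32 were called, and 85% of bright genes were. The median of the members was 0.13, beside 0.00 over all genes, and 38 members did not overlap between the lines, where 52.7% of all genes did not. Of the bright members 32 did not overlap, beside 83.8% of bright genes. In the EIF2B group 4 of 5 members were higher in MDA-MB-231 and none lower, with EIF2B4 not called. In the EIF3 group 7 of 13 were higher and 2 lower. Both responses and the vehicle comparison share vehicle arrays, so their values are given side by side and not related to each other.

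Probe sets of the same gene often differed. Calls were taken here from a separate fit over all 41091 probe sets with 1 gene, not from the fit over genes. In it EIF1B-AS1 was not called in MCF10A (limma adjusted p = 0.056). Of the 24 members called in MCF10A in that fit that had further probe sets, 8 had a called probe set of opposite sign (EIF1, EIF2S2, EIF2S3, EIF3E, EIF3F, EIF3H, EIF3K and EIF4G2). In MDA-MB-231 this held for 7 of 19 (EIF2B5, EIF2S2, EIF3A, EIF3F, EIF3H, EIF4E and EIF5A2). EIF3E and EIF4E2 are not among the 19, since their brightest probe sets were not called there (limma adjusted p = 0.0914 and 0.0543). Both were called higher in the fit over genes, and each had a called dimmer probe set of opposite sign, at -0.99 and -0.49. Among the EIF3 members that rose, EIF3E had a dimmer probe set that changed by -0.62 in MCF10A and -0.99 in MDA-MB-231. For EIF3F the values were -1.08 and -1.32, and for EIF3H -1.61 and -1.28. These members rose on the brightest probe set only, and which transcripts each probe set reports was not examined.

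**Figure D5:**
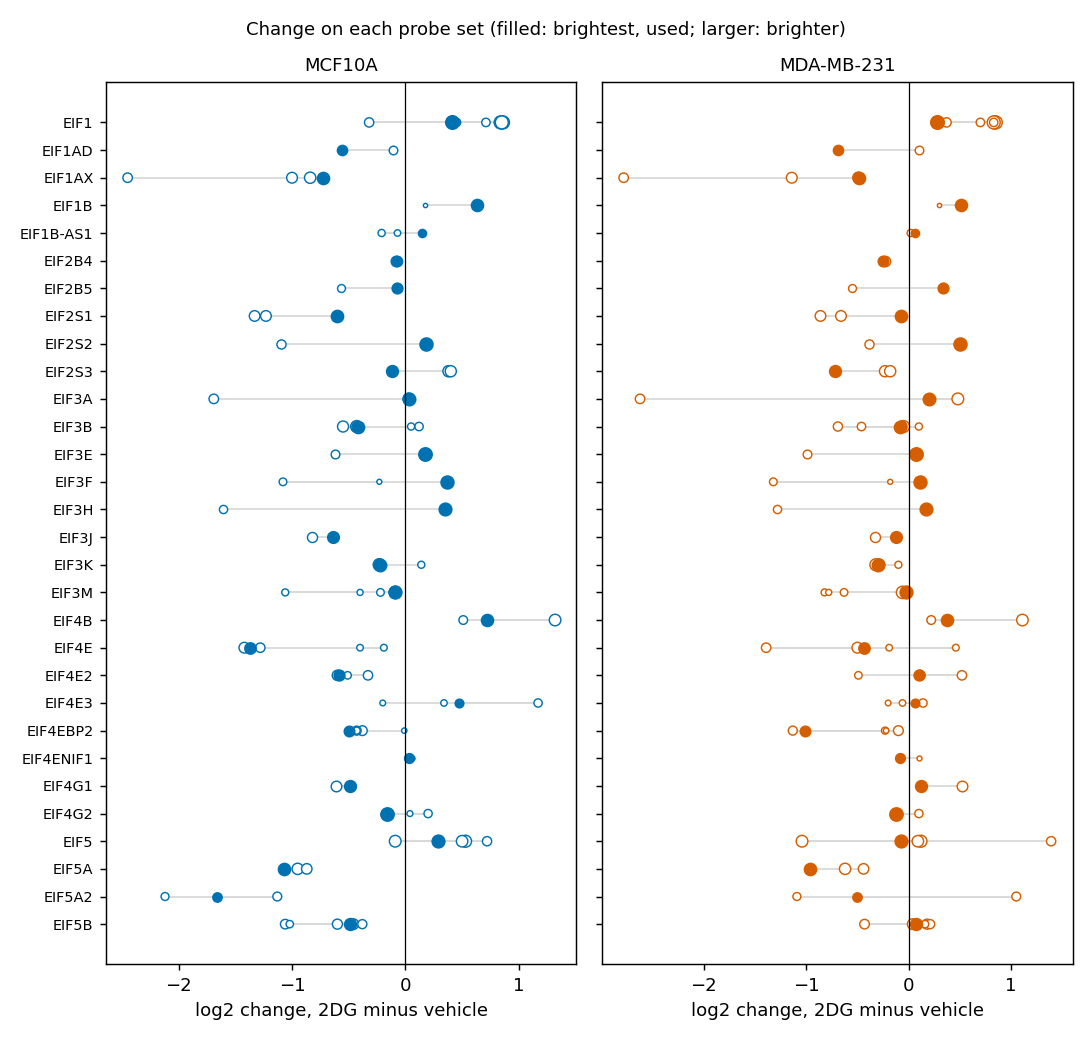
Log2 change with 2DG on every probe set of the members that have more than 1, MCF10A left and MDA-MB-231 right. Filled points are the brightest probe set, used for the values in the text, and point size grows with brightness. EIF1AX, EIF2S1 and EIF4B keep their side of 0 on all probe sets in both lines, while EIF2S2, EIF3A, EIF3F and EIF3H have probe sets on both sides.

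Genes that regulate the factors were followed as lists. Of 11 genes of the kinases and phosphatases of EIF2, 3 were called higher and 3 lower in MCF10A, and 4 and 4 in MDA-MB-231, with a median change of 0.00 in each. EIF2AK3, which encodes the endoplasmic reticulum kinase PERK, rose by 1.26 (SE 0.0413, adjusted p = 1.29e-13) in MCF10A and 0.84 (SE 0.0413, adjusted p = 2.84e-11) in MDA-MB-231. DNAJC3, an inhibitor of EIF2 kinases, rose by 0.96 (SE 0.043, adjusted p = 6.42e-12) and 1.82 (SE 0.043, adjusted p = 8.23e-15), the largest rise of the list in MDA-MB-231. IMPACT, an inhibitor of the kinase GCN2, had the largest fall in both lines, -0.56 (SE 0.0501, adjusted p = 4.31e-08) and -1.22 (SE 0.0501, adjusted p = 3.58e-12).

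Of 13 genes of mTORC1 and the EIF4E kinases MNK, 7 rose and 5 fell in MCF10A and 7 rose and 4 fell in MDA-MB-231. SESN2, a stress-induced inhibitor of mTORC1, had the largest rise in MCF10A, 1.38 (SE 0.11, adjusted p = 1.04e-08). DDIT4, another inhibitor, had the largest in MDA-MB-231, 1.92 (SE 0.0462, adjusted p = 9.95e-15). RPS6KB2, an S6 kinase, had the largest fall in MCF10A, -0.84 (SE 0.0465, adjusted p = 9.88e-11), and MTOR the largest in MDA-MB-231, -0.69 (SE 0.0465, adjusted p = 1.51e-09). The medians were 0.23 and 0.33.

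Of 12 other initiation and recycling genes, 11 had a value, and 2 rose and 5 fell in MCF10A and 2 rose and 4 fell in MDA-MB-231. ABCE1, which splits ribosomes after termination, had the largest fall in MCF10A, -0.81 (SE 0.0463, adjusted p = 1.47e-10), and MCTS1, a partner in tRNA and subunit recycling, in MDA-MB-231, -0.79 (SE 0.0311, adjusted p = 2e-12). Of 11 elongation and termination genes 8 had a value, of which 4 rose and 3 fell in MCF10A and 3 rose and 0 fell in MDA-MB-231 by limma, where at an unadjusted p under 0.05 0 fell. EEF2K, the kinase that inhibits elongation factor EEF2, had the largest rise in MCF10A, 0.55 (SE 0.0351, adjusted p = 5.98e-10), and GSPT1, a release factor, in MDA-MB-231, 0.80 (SE 0.0294, adjusted p = 8.61e-13).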

How the data were processed

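RNA from 16 samples was labelled from the 3' end and measured on 1-colour Affymetrix arrays. The authors deposited log2 probe set values summarised with RMA (robust multi-array average), per the submitters' processing notes. Its version, and whether all arrays were normalised together, are not given in the sources used here. RMA reports no background call and compresses low values. Since labelling starts at the 3' end, a value also depends on RNA integrity and on where a probe set lies in a transcript.

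Of 54675 probe sets, 62 controls, 1801 with several genes and 11721 absent from the annotation supplied were left out. The remaining 41091 named 19775 genes, and 41037 were found in RefSeq (GRCh38.p14) by gene number. Where a gene had several probe sets, the brightest on average over the 16 arrays stood for it. The 47 members had 120 probe sets, and 31 had more than 1.

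Differences were tested in R 4.3.3 with lmFit and eBayes of limma 3.58.1, from a model of 4 group means over the 16 arrays, and tables were made with Python 3.11.15 and pandas 2.3.3. Tests were two-sided, with Benjamini-Hochberg adjustment over all 19775 genes, and a call was an adjusted p under 0.05. Errors are standard errors of the fit. The number of arrays limits the precision. The fit was tested on simulated data.

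Named with values on every array were EIF4EBP1, EIF4EBP2, the EIF2 subunits, the 6 largest called rises and falls in each line, and the 3 largest called differences each way between responses and between lines on vehicle. The members, lists and this rule were chosen with earlier results of these data known. Alternatives were other probe set choices, normalisations, variance settings, a dim filter, the actin ratio as a covariate, a replicate block and leaving out each array.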

Additional observations from a re-analysis of the deposited data

Results flagged for a closer look

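Of 184 groups of 4 arrays tested, 10 held an array set apart from the other 3 (Dixon's test), and chance alone sets about 1 in 20 groups apart. The widest of them was EIF5A in MDA-MB-231 vehicle replicate B, at 10.62 beside a group median of 12.89, on the array whose actin ratio was 1.09. The other 9 lay close to their groups. EIF1AX read 12.23 in MCF10A 2DG replicate B, with a group median of 12.24. EIF3A read 12.71 in MCF10A 2DG replicate B, with a group median of 12.75. EIF3I read 12.73 in MCF10A vehicle replicate A, with a group median of 12.64. EIF3J-DT read 7.70 in MDA-MB-231 2DG replicate C, with a group median of 7.92. EIF4A2 read 3.83 in MDA-MB-231 vehicle replicate C, with a group median of 3.93. EIF4EBP1 read 10.94 in MDA-MB-231 vehicle replicate D, where the other 3 arrays gave 10.86, 10.87 and 10.86. EIF5 read 13.33 in MDA-MB-231 2DG replicate D, with a group median of 13.28. EIF5A2 read 9.66 in MDA-MB-231 vehicle replicate D, with a group median of 9.55. EIF5A2 read 9.00 in MDA-MB-231 2DG replicate A, with a group median of 9.10.

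The response to 2DG differed between the lines for 29 members by the interaction contrast in limma, and log2 differences (MDA-MB-231 minus MCF10A) are given in parentheses. The response was more positive in MDA-MB-231 for EIF5A2 (1.16), EIF4E (0.93), EIF4E2 (0.69), EIF4G1 (0.61), EIF5B (0.57), EIF4A3 (0.55), EIF3J (0.52), EIF2S1 (0.52), EIF2B3 (0.48), EIF2B5 (0.40), EIF3B (0.34), EIF2S2 (0.32), EIF1AX (0.25) and EIF3A (0.17). It was more negative for EIF3J-DT (-0.91), EIF2D (-0.76), EIF2S3 (-0.59), EIF4EBP2 (-0.51), EIF4B (-0.36), EIF5 (-0.36), EIF3F (-0.26), EIF3G (-0.24), EIF2B1 (-0.21), EIF4EBP1 (-0.20), EIF2B4 (-0.18), EIF3H (-0.18), EIF3L (-0.17), EIF1 (-0.13) and EIF3E (-0.10). Adjusted p-values of these ran from 3.63e-09 for EIF5A2 to 0.0482 for EIF3E. Of them, EIF1, EIF3A, EIF3H, EIF4E, EIF5 and EIF3B turned sign on other probe set choices, as given in the next section.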

How the results depend on the processing

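The direction of a member depended on the probe set more than on any other choice tried. With the mean of all probe sets of a gene, log2 changes turned sign in the MCF10A response for EIF1B-AS1 -0.05, EIF2S2 -0.46, EIF2S3 0.22, EIF3A -0.54, EIF3E -0.22, EIF3F -0.31, EIF3H -0.63 and EIF4G2 0.02. In the MDA-MB-231 response under that setting the turned values were EIF2B5 -0.10, EIF3A -0.65, EIF3E -0.46, EIF3F -0.46, EIF3H -0.55 and EIF5 0.10. In the difference of responses under that setting the turned values were EIF1 0.13, EIF3A -0.11 and EIF3H 0.08. In the vehicle comparison of the lines under that setting the turned values were EIF2S1 -0.10 and EIF3H -0.23. Without probe sets shared by several transcripts (_s_at, _x_at and _a_at), log2 changes turned sign in the MCF10A response for EIF1 -0.32, EIF2S2 -1.10, EIF3A -1.69, EIF3E -0.62, EIF3F -1.08 and EIF3K 0.14. In the MDA-MB-231 response under that setting the turned values were EIF2S2 -0.39, EIF3A -2.62, EIF3E -0.99, EIF3F -1.32, EIF5 1.39 and EIF5B -0.43. In the difference of responses under that setting the turned values were EIF1 0.69, EIF3A -0.94, EIF3B -0.26, EIF4E -0.10 and EIF5 0.67. In the vehicle comparison of the lines under that setting the turned values were EIF1 -0.86, EIF2S1 -0.18, EIF2S2 -0.10, EIF4E2 0.23 and EIF5 -0.25. Why probe sets of a gene differ was not tested. EIF5A also turned in the MDA-MB-231 response with the actin ratio as a covariate (0.39) and in the difference of responses without MDA-MB-231 vehicle replicate B (-0.46, beside values up to 0.32 when another array was left out). The mean of all probe sets left 9 members higher in MDA-MB-231. Asking in addition for a change of at least 0.5 left 5 higher and 13 lower in MCF10A, 2 and 8 in MDA-MB-231, 8 and 4 for the difference and 9 and 8 between the lines on vehicle. Leaving out each array in turn gave 16 to 17 higher and 22 lower in MCF10A, 12 to 15 and 15 to 18 in MDA-MB-231, 14 to 15 and 14 to 16 for the difference and 24 to 26 and 11 to 13 on vehicle. Quantile normalization, median centring, the trend and robust setting of eBayes, the dim filter, fitting only the groups compared (not defined for the difference) and the actin covariate kept every count within 1.5 times and, besides EIF5A, turned no direction of a called member. Same-letter replicates varied together little, with correlations of their deviations from -0.099 to 0.088. Between MCF10A vehicle and MCF10A 2DG these were 0.085, 0.04, 0.071 and 0.088 for A to D. Such weak values do not settle whether the letters pair the samples. A fit with the replicate letter as a block gave 17 higher and 22 lower in MCF10A, 12 and 17 in MDA-MB-231, 14 and 15 for the difference and 24 and 13 on vehicle. RMA gives no detection call, so signal over background was not available for dim members such as EIF4A2 and EIF3C.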
